A study of Mus musculus with 14 samples.

Results

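Peaks of RNF2 and BAP1 were examined at 10 genes that encode transcription factors of the pluripotent state in mouse embryonic stem (ES) cells: Pou5f1, Nanog, Sox2, Klf4, Klf2, Esrrb, Tbx3, Prdm14, Zfp42 and Tfcp2l1. They were chosen by name from 21779 protein-coding genes of the RefSeq annotation of GRCm38, and a gene was called where a peak overlapped its span plus or minus 1 kb by at least 1 bp. RNF2 was called at 3 of the 10, Tbx3, Esrrb and Prdm14, in every wild-type and BAP1 knockout library. Of all genes, 13.4% were called in both wild-type libraries and 26.9% in both BAP1 knockout libraries, the latter near the members' share. Klf4, Klf2 and Sox2 held smaller RNF2 peaks in the deeper second library of each genotype. Pou5f1, Zfp42 and Tfcp2l1 held 1 short, low peak in the second BAP1 knockout library alone, and Nanog held none. No BAP1 peak was called at any of the 10, a count near the 4.52% of all genes with one in the C91A library. The genes had been put together as active genes with weak or absent RNF2. That description did not hold for Tbx3 and Esrrb, whose strongest wild-type peaks stood at the 87.0th and 86.3rd percentile of the first wild-type list.

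Chromatin immunoprecipitation with sequencing (ChIP-seq) had been made for RNF2 and for BAP1, giving 7 ChIP libraries with 7 inputs among the 14 samples. RNF2 ChIP came from wild-type cells (2 libraries), BAP1 knockout cells (2 libraries) and RNF2 knockout cells (1 library). BAP1 ChIP came from Bap1C91A/- cells (1 library), in which a catalytic cysteine of BAP1 is replaced and the other allele is missing, and from BAP1 knockout cells (1 library). All groups, wild type included, were C57BL/6 ES cells labelled as from embryonic day 3.5 to 4.5, and all were kept for 4 days in 4-hydroxytamoxifen (100 nM) with the caspase inhibitor emricasan (10 µM), per the labels' protocols. The Bap1C91A/- cells alone among the groups used here were also crosslinked with 2 mM disuccinimidyl glutarate for 30 min. How the knockout alleles were made, whether a line is 1 clone and whether libraries came from separate cultures are not given in the sources used here, so spread between libraries may be technical. An exact permutation test of 2 libraries against 2 cannot give a two-sided p below 0.333, and values are therefore described without a test. A peak list holds no expression level, so the labelled cell type could not be checked from its markers' RNA.

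RNF2, also called RING1B, is the catalytic subunit of Polycomb repressive complex 1 and places ubiquitin on histone H2A at silenced genes. In ES cells this complex is best known at the CpG-rich promoters of lineage regulators, while BAP1 is the deubiquitinase that removes the mark. The 10 factors form the network that holds ES cells in the self-renewing state: Pou5f1, Sox2 and Nanog at its core, and Klf4, Klf2, Esrrb, Tbx3, Prdm14, Zfp42 and Tfcp2l1 around it, several of them in naive cells in particular.

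The sequence upstream of a start site is shown for 6 promoters because they span the range of RNF2 calls and of CpG content among the 10 genes. RefSeq GRCm38.p6 promoters were matched for 8 of the 10 genes, not for Tbx3 and Prdm14. Each line below gives the 250 bases before the start, 5′ to 3′ on the gene's strand, with every CpG dinucleotide in capitals. Klf4 (chr4:55532476-55532725, minus strand) and Klf2 (chr8:72318812-72319061, plus strand) held RNF2 in both second libraries. The internal Esrrb promoter (chr12:86421394-86421643, plus strand) held RNF2 in all 4 libraries of wild type and BAP1 knockout. The first Pou5f1 promoter (chr17:35505782-35506031, plus strand) held it in the second BAP1 knockout library alone. Tfcp2l1 (chr1:118627695-118627944, plus strand) and the first Nanog promoter (chr6:122707239-122707488, plus strand) held no peak over the window.
Klf4: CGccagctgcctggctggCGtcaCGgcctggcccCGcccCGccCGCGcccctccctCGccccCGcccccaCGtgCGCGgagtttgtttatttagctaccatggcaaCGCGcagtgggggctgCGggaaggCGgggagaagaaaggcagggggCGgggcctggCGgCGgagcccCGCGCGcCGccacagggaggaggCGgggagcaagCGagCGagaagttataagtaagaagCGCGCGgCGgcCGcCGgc
Klf2: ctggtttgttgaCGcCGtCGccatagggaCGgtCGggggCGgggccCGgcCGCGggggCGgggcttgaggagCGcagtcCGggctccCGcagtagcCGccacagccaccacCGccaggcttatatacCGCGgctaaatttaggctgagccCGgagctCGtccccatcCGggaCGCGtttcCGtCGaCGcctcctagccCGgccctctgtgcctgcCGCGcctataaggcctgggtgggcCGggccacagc
Esrrb, internal: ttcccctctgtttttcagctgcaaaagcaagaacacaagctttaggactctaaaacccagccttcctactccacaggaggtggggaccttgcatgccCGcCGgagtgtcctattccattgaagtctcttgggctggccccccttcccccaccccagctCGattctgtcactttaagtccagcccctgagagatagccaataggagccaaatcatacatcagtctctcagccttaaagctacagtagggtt
Pou5f1, first: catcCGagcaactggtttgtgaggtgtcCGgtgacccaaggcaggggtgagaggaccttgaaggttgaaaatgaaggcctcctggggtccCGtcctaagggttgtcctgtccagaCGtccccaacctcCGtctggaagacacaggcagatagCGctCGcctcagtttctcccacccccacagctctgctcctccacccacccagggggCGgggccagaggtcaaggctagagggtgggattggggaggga
Tfcp2l1: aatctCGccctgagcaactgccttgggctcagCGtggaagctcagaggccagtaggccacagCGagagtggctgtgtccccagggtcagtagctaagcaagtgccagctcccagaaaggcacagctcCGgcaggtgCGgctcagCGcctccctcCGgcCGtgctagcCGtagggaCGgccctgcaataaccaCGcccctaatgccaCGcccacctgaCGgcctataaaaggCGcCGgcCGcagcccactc
Nanog, first: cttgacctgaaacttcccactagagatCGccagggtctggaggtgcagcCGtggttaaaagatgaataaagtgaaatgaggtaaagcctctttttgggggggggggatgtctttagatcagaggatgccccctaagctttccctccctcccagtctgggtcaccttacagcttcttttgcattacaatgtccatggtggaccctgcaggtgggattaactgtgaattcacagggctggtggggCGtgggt
The capitals number 32 CpGs for Klf4 and 29 for Klf2, against 16 for Tfcp2l1, 8 for Pou5f1 and 3 each for the internal Esrrb and the Nanog promoter. The internal Esrrb promoter, the one with RNF2 in all 4 libraries, is thus among the CpG-poor ones by this count.

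The RNF2 libraries differed in depth and peak calling by replicate number. The first wild-type and BAP1 knockout libraries held 58.4 and 54.1 M ChIP tags and 4038 and 7946 peaks, and the second held 149 and 139 M tags and 28770 and 39872 peaks. The RNF2 knockout library, at 119 M tags, listed 0 peaks. It was called with the settings of the second RNF2 libraries, and no RNF2 knockout library with those of the first was analysed here. The C91A library held 415 M tags and 2395 BAP1 peaks, against 32.5 M tags and 144 peaks for BAP1 ChIP in BAP1 knockout cells. Fold enrichment below is the authors' value of a peak over its local background. It is read by its percentile among the peaks of its own list, where 100 is the strongest.

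In wild-type cells, RNF2 was called at 3 of the 10 genes in the first library (Tbx3, Esrrb and Prdm14) and at 6 in the second, which added Klf4, Klf2 and Sox2. Over all genes tested the shares were 13.4% in the first library, 55.3% in the second and 13.4% in both. The members' 6 of 10 in the second library therefore lay near the share of all genes. In BAP1 knockout cells the first library held the same 3 genes, against 26.9% of all genes, and the second held 9, all but Nanog, against 63.5%. In both BAP1 knockout libraries RNF2 lay at 3 of the 10, with 26.9% of all genes so called. Gene length moves with these calls: RNF2 lay in both wild-type libraries at 9.32% of genes spanning at most 20 kb and at 33.5% of those of at least 100 kb. Tbx3 and Prdm14, with spans of 14191 and 13736 bp, belong to the short class, and Esrrb, at 160512 bp, to the long one.

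**Figure D1:**
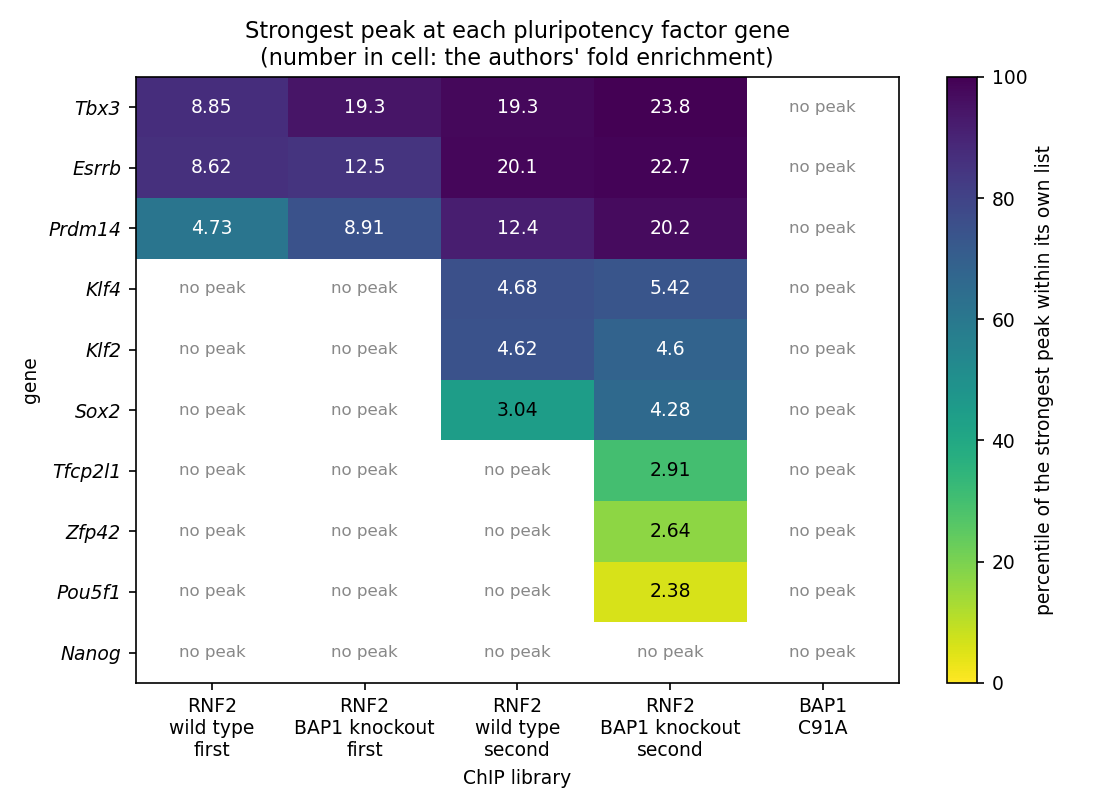
Strongest peak at each of the 10 genes (rows) in the 4 RNF2 libraries of wild type and BAP1 knockout and in the BAP1 C91A library (columns); colour gives the percentile of that peak's fold enrichment in its own list, and the printed number is the authors' fold enrichment. Tbx3, Esrrb and Prdm14 are filled in all 4 RNF2 columns, Klf4, Klf2 and Sox2 in the second libraries, and the Nanog row and the BAP1 column hold no peak.

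Tbx3, a T-box factor that sustains self-renewal and later acts in limb and heart development, held the broadest RNF2 domain of the 10 (chromosome 5, 119670534 to 119684724). In wild type its strongest peak reached a fold enrichment of 8.85 (first library, percentile 87.0) and 19.3 (second, percentile 97.8). In BAP1 knockout the values were 19.3 (percentile 94.2) and 23.8 (percentile 99.8). The domain thus stood in the upper part of every list. Its widest peak measured 9325 and 20039 bp in the wild-type libraries, against 19860 and 21490 bp without BAP1. By width these ranked 109 and 46 in the wild-type lists and 18 and 31 in the BAP1 knockout lists. In each library this peak began outside the gene, on its lower-coordinate side, and ran across the lower end into the gene body. In the first wild-type library the outside stretch was split, with a further peak of 5004 bp (fold enrichment 8.01) lying 5612 bp from the gene. Tbx3os1 and Tbx3os2, antisense RNA genes, lie in the same window, and peaks cannot be assigned between them and Tbx3.

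Esrrb, an orphan nuclear receptor of naive ES cells (chromosome 12, 86361117 to 86521628), held RNF2 mainly at 1 place inside the gene. The strongest peak had a fold enrichment of 8.62 (percentile 86.3) and 20.1 (percentile 98.4) in wild type. In BAP1 knockout it had 12.5 (percentile 84.9) and 22.7 (percentile 99.1). The order of the percentiles thus followed the library number, not the genotype. All 4 peaks spanned the internal RefSeq start at 86421644, whose upstream sequence is shown above, and no list held a peak over the first start at 86361117. The summits lay 60696 to 61335 bp from the lower gene end, in BAP1 knockout at 60696 and 61108 bp and in wild type at 60726 and 61335 bp. Further peaks inside Esrrb, called in the second libraries alone, were at most 374 bp long with fold enrichments of 3.16 or less.

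Prdm14, a PR-domain factor that restrains FGF signalling and DNA methylation in ES cells and germ cell precursors (chromosome 1, 13113428 to 13127163), held RNF2 at its higher-coordinate end. The strongest peak had a fold enrichment of 4.73 (percentile 61.0) and 12.4 (percentile 91.6) in wild type, and of 8.91 (percentile 74.9) and 20.2 (percentile 97.0) in BAP1 knockout. Prdm14 thus ranked below Tbx3 and Esrrb in every list. Over all genes with RNF2 in all 4 libraries, the median percentile of the strongest peak was 57.1 and 94.5 in wild type. In BAP1 knockout it was 78.6 and 95.4. Prdm14 stood above this median in the first wild-type and second BAP1 knockout lists and below it in the others. In both pairs of libraries its percentile was the higher in BAP1 knockout, whose lists are the longer. A longer list with more weak peaks can raise the percentile of a peak, and the part of list length was not tested. That peak measured 2018 and 3668 bp in wild type, against 3973 and 5384 bp in BAP1 knockout, and it spanned the higher gene end in all 4 lists.

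**Figure D2:**
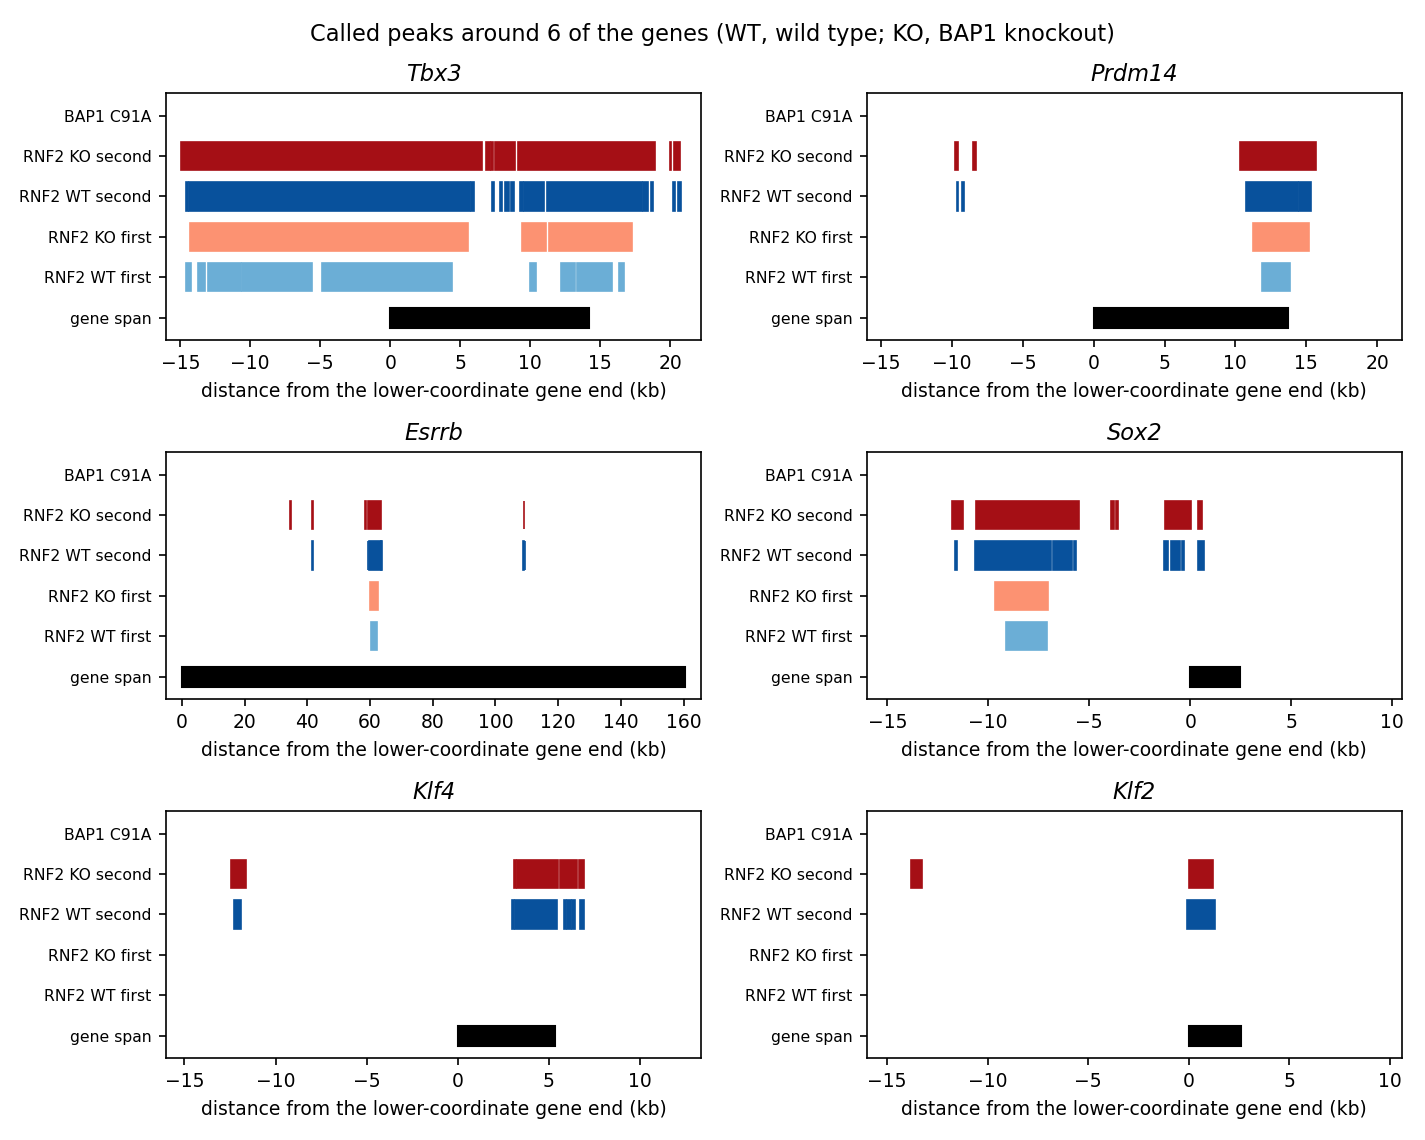
Called peaks (coloured bars) around 6 genes, in kb from the lower-coordinate gene end, with the gene span in black and 1 row per library. RNF2 lies over both ends of Tbx3, the higher end of Prdm14 and 1 internal place in Esrrb in all 4 libraries, lies beside Sox2 in all 4 and at Klf4 and Klf2 in the second libraries, and the BAP1 row is empty.

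Klf4 and Klf2, Krüppel-like factors that act in part redundantly in naive ES cells, held RNF2 at their starts in the second libraries alone. Klf4 (chromosome 4, 55527137 to 55532475) had a strongest peak with a fold enrichment of 4.68 in wild type (percentile 75.4) and 5.42 in BAP1 knockout (percentile 73.7). Klf2 (chromosome 8, 72319062 to 72321654) had 4.62 (percentile 74.8) and 4.6 (percentile 68.3). Both genes thus stood above most single peaks of the second lists but below Tbx3, Esrrb and Prdm14. In the second BAP1 knockout list they were also below 81.9. That was the median percentile of the strongest peak over the 11729 genes called in both second libraries. In wild type the Klf4 and Klf2 peaks ranked 7075 and 7260 by fold enrichment, beyond the 4038 peaks that the first wild-type list holds in all. In BAP1 knockout they ranked 10478 and 12658, beyond the 7946 of the first BAP1 knockout list. The peaks ran over the start site into the gene: the Klf4 summits lay 1376 and 1120 bp from its start, and those of Klf2 555 and 747 bp. In the first libraries the nearest RNF2 peak lay 119 and 118 kb from Klf4 and 158 kb from Klf2.

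Sox2, the SoxB1 partner of POU5F1 at ES cell enhancers (chromosome 3, 34649995 to 34652461), held weak RNF2 at its start in the second libraries and stronger domains outside the gene on both sides. At the gene the fold enrichment was 3.04 in wild type (percentile 44.2) and 4.28 in BAP1 knockout (percentile 65.7). In wild type 3 short peaks flanked the start, and in BAP1 knockout 1 peak of 1273 bp reached over it. The stronger of the domains outside lay in Sox2ot, the noncoding gene that overlaps Sox2, on its lower-coordinate side. There the wild-type fold enrichment was 4.6 in the first library (percentile 59.3) and 16.8 in the second (percentile 95.7). In BAP1 knockout it was 13.9 (percentile 87.3) and 17.4 (percentile 94.3). The Sox2ot domain was thus called in all 4 libraries, 7.11 and 7.05 kb from Sox2 in the first wild-type and first BAP1 knockout library, outside the window used for the gene. Its length in wild type was 2003 and 3725 bp, against 2620 and 5107 bp in BAP1 knockout. On the higher-coordinate side of Sox2 a further RNF2 domain was called in all 4 libraries. In the first wild-type library it ran from 13.276 to 14.365 kb from the lower end of Sox2. Its fold enrichment was 4.14 (percentile 51.4) and 9.77 (percentile 88.6) in wild type and 7.58 (percentile 69.1) and 11.9 (percentile 88.5) in BAP1 knockout.

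Pou5f1, which encodes the POU factor OCT4 (chromosome 17, 35506032 to 35510777), held 1 RNF2 peak of 150 bp over its first start in the second BAP1 knockout library. Its fold enrichment was 2.38 and its −log10 q 2.09, at the 6.02nd percentile of the list. Tfcp2l1, a grainyhead-like factor downstream of LIF signalling (chromosome 1, 118627923 to 118685168), held 1 peak of 224 bp there, 174 bp after its start, with a fold enrichment of 2.91 (percentile 29.8). Zfp42, also called REX1 and long used as a marker of naive cells (chromosome 8, 43295067 to 43307009), held 1 peak of 183 bp with a fold enrichment of 2.64 (percentile 17.1), 10919 bp from its start. All 3 peaks thus lay in the lower part of that list. In the second wild-type library the nearest peak lay 5.95 kb from Pou5f1 (with a fold enrichment of 2.0, at Tcf19 and Cchcr1), 140 kb from Tfcp2l1 and 296 kb from Zfp42. Nanog, the homeobox factor of the core (chromosome 6, 122707489 to 122714633), had its nearest RNF2 peak at 86.9 and 44.4 kb in wild type and at 78.6 and 28.2 kb in BAP1 knockout.

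Loss of BAP1 was compared within each replicate number, since depth and calling differ between the numbers. In the first pair no member gained a peak, against 13.9% of all genes. In the second pair 3 of the 10 did (Pou5f1, Zfp42 and Tfcp2l1), against 9.64% of all genes, and over both pairs none did, against 0.133%. No member lost a peak in either pair, against 0.377% of all genes in the first and 1.4% in the second, shares at which 10 genes would show few or no losses. The 3 gained peaks stood at percentiles 6.02, 17.1 and 29.8 of the second BAP1 knockout list. Over all 2099 genes gained in that pair the median percentile was 45.7, and over the 11729 genes called in both second libraries it was 81.9. The gains ended under stricter settings: none of the 3 peaks reached a −log10 q of 5, and none was among the 4038 strongest peaks of its list. The second BAP1 knockout list is also the longest, and the part of list length in these gains was not tested.

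Among genes with RNF2 in all 4 libraries, 2840 in number, the covered length was larger in BAP1 knockout in both pairs at 66.5%. Of the 3 members among them, Tbx3 and Prdm14 were so and Esrrb was not. Tbx3 had 8735 and 13363 bp under peaks in wild type, against 12125 and 15422 bp in BAP1 knockout, ratios of 1.39 and 1.15. Prdm14 had 2018 and 3887 bp in wild type, against 3510 and 4433 bp in BAP1 knockout, ratios of 1.74 and 1.14. Esrrb had 2060 and 4844 bp in wild type, against 2747 and 4718 bp in BAP1 knockout, ratios of 1.33 and 0.974. The ratios of the first pair thus exceeded those of the second at all 3 genes. The same held over the 2840 genes, whose median ratio was 1.65 in the first pair and 1.08 in the second. Taken over both numbers, the lengths in the genotypes overlapped at all 3 genes: for Tbx3 the mean was 11049 ± 3270 bp without the deletion and 13773.5 ± 2330 bp with it (SD, n = 2). For Prdm14 the means were 2952.5 ± 1320 and 3971.5 ± 653 bp, and for Esrrb 3452 ± 1970 and 3732.5 ± 1390 bp. These SDs hold the difference in depth and calling between the first and second libraries, so the ratios within each number are the closer comparison, with 1 library per genotype and no replicate. In the second pair alone, Klf4 had 2843 and 3084 bp, Sox2 858 and 1245 bp, and Klf2 1398 and 1196 bp in wild type and BAP1 knockout. By percentile of the strongest peak, Tbx3 and Prdm14 stood higher in BAP1 knockout in both pairs, as did 47.9% of the 2840 genes, and Esrrb in the second pair alone.

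**Figure D3:**
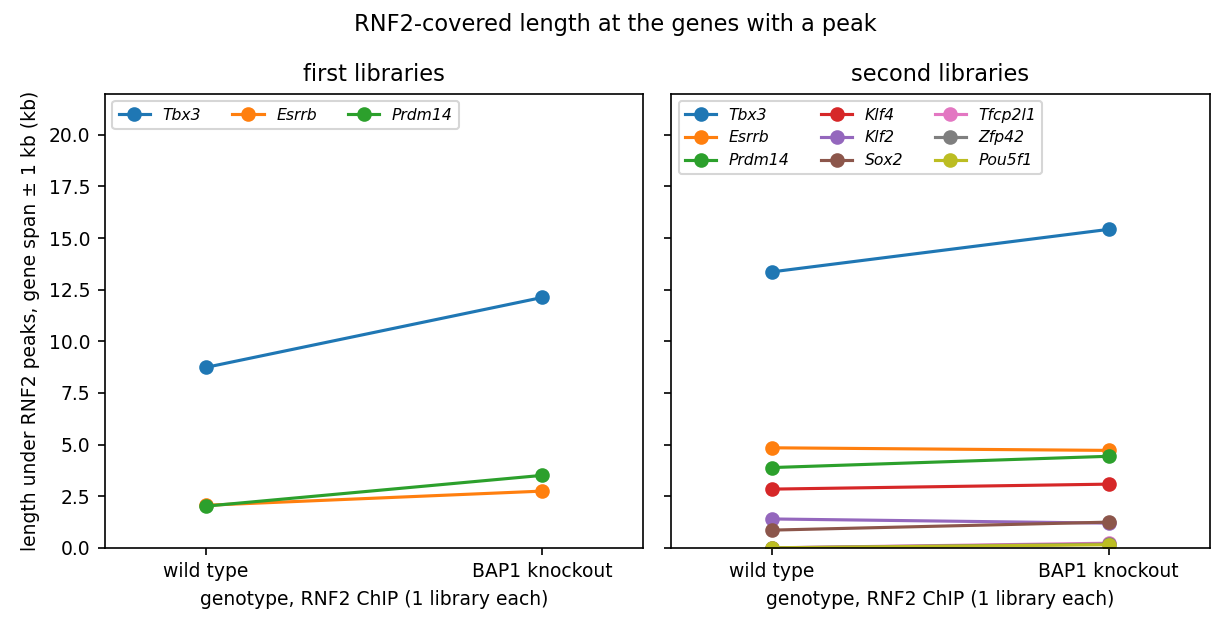
Length under RNF2 peaks within the gene span plus or minus 1 kb (kb) in wild type and BAP1 knockout, 1 line per gene, for the first libraries (left) and the second (right). Tbx3 lies above all other genes in both panels, and Esrrb and Prdm14 start at 2060 and 2018 bp in the first wild-type library and lie between 3887 and 4844 bp in the second pair.

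BAP1 was called at none of the 10 genes in C91A cells, where 4.52% of all genes held a peak, and at none in the BAP1 knockout control, where 0.124% did. The nearest C91A peak to a member lay 99.1 kb from Klf2, at Fam32a. From Tbx3 it lay 747 kb away, and from the other 8 genes 1140 to 2120 kb. The 3 genes with RNF2 in every library thus had no BAP1 peak closer than 747 kb. The C91A list held a peak at 984 of the 21779 genes, a share at which 0 of 10 is not particular to these genes.

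Promoter windows spanned 300 bases (250 before a start and 50 after). RNF2 lay in both wild-type libraries over 1 of the 11 member promoters, the internal one of Esrrb, and over 7.99% of all 21263 promoters. Tbx3 and Prdm14 had no matched promoter, though RNF2 lay over a gene end of each in every wild-type and BAP1 knockout library. The count over the 11 therefore does not describe the members as a whole. The shares of all promoters were 8.0% and 38.9% in the first and second wild-type library, 17.9% and 49.0% in BAP1 knockout, and 2.18% for BAP1 in C91A cells. Klf4 and Klf2 promoters were overlapped by a peak in both second libraries, and those of Sox2 and Pou5f1 in the second BAP1 knockout library alone. CpG observed over expected, the ratio of CpGs counted to those the base content predicts, was 0.974 at Klf4, 0.889 at Klf2, 0.819 at Sox2 and 0.656 at Tfcp2l1. These 4 of the 11 member promoters were CpG-rich, taken as a ratio of at least 0.6 with at least 50% GC, as were 45.1% of all promoters. RNF2 lay over 13.6% and 64.7% of the 9600 CpG-rich promoters in the wild-type libraries and over 28.8% and 78.7% in BAP1 knockout. Tfcp2l1 was the 1 CpG-rich member promoter with no peak over its window in any library.

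The other 7 member promoters had a lower ratio: 0.441 at Zfp42, 0.374 and 0.388 at the first and second Pou5f1 start, 0.266 at the first Esrrb start, 0.318 at the internal one, and 0.192 and 0.181 at the Nanog starts. With 7 CpGs in 300 bases, the internal Esrrb promoter lay below the median promoter, which had 13. Among promoters with a ratio of 0.2 to 0.4, RNF2 lay over 2.01% and 14.3% in wild type and 6.69% and 21.5% in BAP1 knockout. The peak at this promoter was 2060 to 3952 bp long, and the sequence beyond the promoter window was not analysed here. Of 3 motifs searched on both strands, the GC box GGGCGG is a site of Krüppel-like and Sp factors. It was in 5 of the 11 member promoters, a share near the 46.2% of all promoters. These were the promoters of Klf2, Klf4, Sox2 and Zfp42 and the first of Pou5f1. The octamer ATGCAAAT, bound by POU factors, was at Zfp42 and in 1.66% of all. The estrogen-related receptor half-site AAGGTCA was at no member and in 4.08% of all. None of the motifs contains another, and a match is a description of letters alone.

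**Figure D4:**
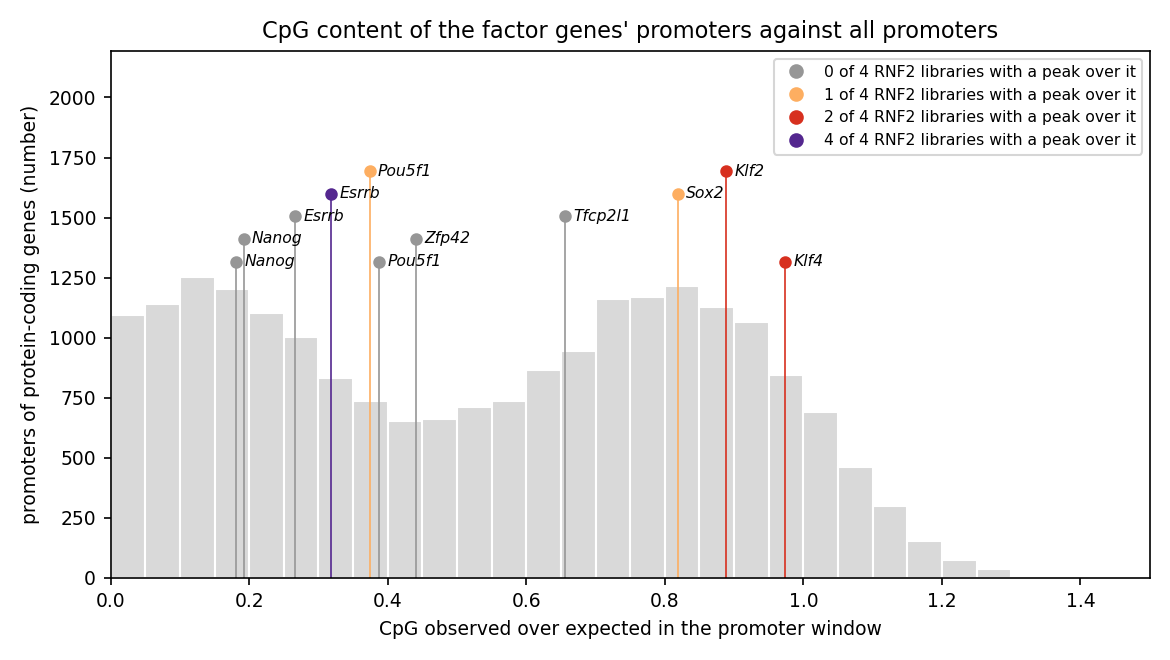
Number of promoters by CpG observed over expected (grey bars, 21263 promoters) with the 11 promoters of 8 member genes as labelled pins coloured by how many of the 4 RNF2 libraries had a peak over them. Klf4 and Klf2 stand at the CpG-rich side with 2 libraries, and the internal Esrrb promoter stands at 0.318 with 4.

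Among 31 other genes of the ES cell network, RNF2 lay at 5 in both wild-type libraries (16.1%, near the 13.4% of all genes). These were the homeobox gene Gbx2, the Nodal antagonist Lefty2, the nuclear receptor Nr5a2, the zinc-finger gene Sall1 and Tcl1. The 4 highest stood below Tbx3 and Esrrb in the first wild-type list: Sall1 had a fold enrichment of 5.12, Gbx2 4.49, Tcl1 3.27 and Nr5a2 3.26. Of these Sall1 stood above Prdm14 (4.73) and the others below it. The deeper wild-type library held RNF2 at 22 of the 31 (71.0%) and at 6 of the 10 members, against 55.3% of all genes. In the first pair 5 of the 31 (16.1%) gained a peak in BAP1 knockout (Dppa3, Etv4, Etv5, Lefty1 and Sall4), near the 13.9% of all genes. No member did, and 10 genes are too few to set the lists apart at such a share. BAP1 in C91A cells lay at 1 of the 31, Etv4, and at 4.52% of all genes. Genes of the next states differed from the members by count. These lists were chosen with earlier results of these data known, so the contrast is a description and no test. RNF2 lay in both wild-type libraries at 11 of 14 formative and primed genes and at 20 of 20 lineage regulators, against 13.4% of all genes. BAP1 in C91A cells lay at 7 of the former and 17 of the latter. Otx2, a factor of the exit from naive pluripotency, had wild-type fold enrichments of 17.4 and 17.3, and the endoderm factor Gata6 had 22.3 and 20.8. Of 19 housekeeping genes none held RNF2 in both wild-type libraries, while 13 (68.4%) did in the second.

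**Figure D5:**
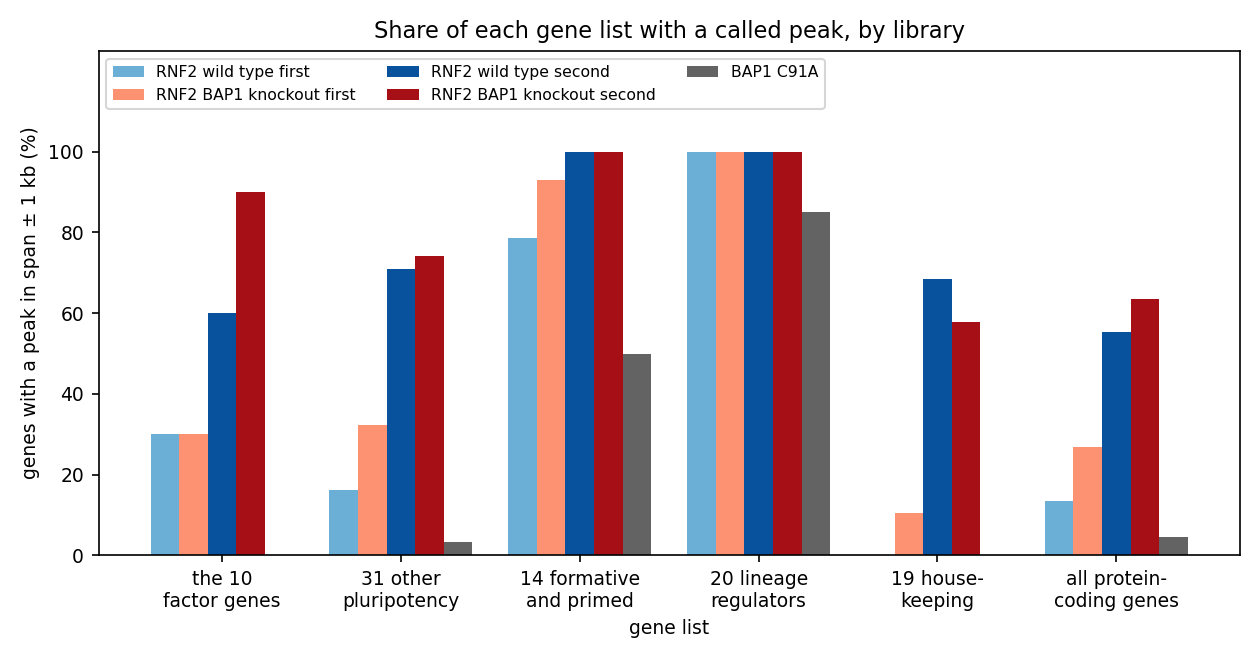
Percent of each gene list with a called peak in the gene span plus or minus 1 kb, by library (bars), for the 10 factor genes, 4 other lists and all 21779 protein-coding genes. The lineage regulators reach 100% in all 4 RNF2 libraries, and the 10 factor genes run from 30% to 90% with no BAP1 bar.

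Within their own families the members fell on different sides. RNF2 lay in both wild-type libraries at 9 of 14 other POU genes, such as Pou3f3 (fold enrichment 13.4 and 21.6), where Pou5f1 had no peak. It lay at all 4 other SoxB genes examined, such as Sox1 (12.3 and 16.7), where the Sox2 gene had a peak in the second library alone. That contrast depends on the flank of 1 kb: with 10 kb, Sox2 too was called in both wild-type libraries. Of 15 other Krüppel-like genes Klf12 and Klf14 were called, so that Klf4 and Klf2 were like most of their family. Tbx3 was called along with 11 of 15 other T-box genes, and its first wild-type value of 8.85 was below those of Tbx15 (17.2) and Tbx2 (15.2). Prdm14 was called along with 7 of 14 relatives, led by Prdm6 (24.8 and 20.6), and Esrrb with 3 of 4, led by Esrrg (11.4 and 22.4). The other called relatives of Esrrb, Esr1 and Esr2, stood low in the first wild-type list (percentiles 19.1 and 1.11). In the second their percentiles were 94.2 and 88.9. Neither was above 94.5, the median there for genes with RNF2 in all 4 libraries. Neither YY1-family relative of Zfp42 was called, and of 5 relatives of Tfcp2l1 only Grhl2 was (7.02 and 18.5). BAP1 in C91A cells lay at 8 T-box relatives and at 6 PR-domain relatives, but not at Tbx3 or Prdm14. These are counts of small lists, and no test was made of them. Over all genes, 13.4% held RNF2 in both wild-type libraries and 4.52% held BAP1 in C91A cells.

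The genes closest to each bound member were found by the largest difference in percentile over 5 libraries, the 4 RNF2 libraries and C91A, with no peak counted as 0. For Esrrb these were Megf11, Lox and Hivep2, which stayed within 0.541, 1.04 and 1.49 percentile points. For Tbx3 they were Lor, Tmem163 and Lratd2, within 1.31, 1.41 and 1.54 points. For Prdm14 they were Dmrtb1, Slc6a17 and Vstm2a, within 1.45, 1.94 and 2.34 points. Because C91A was among the 5 libraries, this choice left out genes with a BAP1 peak.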

How the data were processed

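Reads were aligned to GRCm38 (mm10) by GSNAP, as the submitters' processing notes list, with no version given in the sources used here. MACS2 called the peaks of every ChIP library over its own input, with a cutoff of 0.05 on the q-value, per the file headers. The first RNF2 libraries and both BAP1 libraries used version 2.1.0.20150420, and the second RNF2 libraries and RNF2 knockout used 2.1.1.20160309. Fragment length was estimated in the first RNF2 libraries (297 and 323 bp) and fixed at 100 bp in the second. The deposited lists give each peak's pileup signal, not used here, its −log10 p and −log10 q, and its fold enrichment, a ratio, as the authors' values.

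Peaks on the main chromosomes (1 to 19, X, Y) were joined to RefSeq genes with Python 3.11.15, pandas 2.3.3 and numpy 2.4.6, after removing 108 genes at scaffold positions. The join was tested on simulated peaks. A gene was gained within a pair where BAP1 knockout alone had a peak. The rank of a gene is that of its strongest peak by fold enrichment. The 10 members, the gene lists and the tests were chosen with earlier results of these data known. Named genes are all members, per other list up to 4 called in both wild-type libraries by the lower percentile and up to 2 others in alphabetical order (not all are printed), the 3 most alike per bound member, and list members that make up a count. Alternatives changed the window, threshold, overlap, list length, rank measure and libraries. FLAG ChIP was not analysed here.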

Additional observations from a re-analysis of the deposited data

How the results depend on the processing

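Of 64 alternative counts of members, 55 stayed within 1.5 times the main count or, where that was 0, at 0. This tally is a weak measure of stability, since some outcomes were fixed. Stricter settings could not raise a BAP1 count of 0. Every gene called in the first wild-type library was also called in the second, so leaving out the second could not change that count. The count of 3 gains in the second pair became 0 at a −log10 q of at least 5 (13.1% of all genes), 1 (Sox2, whose wild-type peak fell below the threshold) at 10 (14.6%), 1 (Tfcp2l1) with 200 bp of overlap (11.6%), and 0 with lists of equal length (3.45%). The counts of 1 are near the share of all genes. The calls in both wild-type libraries ran from 3 (13.4% of all genes) to 6 (55.3%) when each library was left out in turn. Those in both BAP1 knockout libraries ran from 3 (26.9%) to 9 (63.5%), and the gains over both pairs from 0 to 3 (9.64%). Each higher count rested on a second library alone, and the 6 lay near the share of all genes. The promoter window was chosen after seeing the data and was open to 8 genes, without Tbx3 and Prdm14. With it 1 gene (Esrrb) was called in both wild-type libraries (7.99% of all promoters) and 1 in both BAP1 knockout libraries (17.9%). Sox2 joined the called genes with a flank of 10 kb (4 in each genotype, against 16.1% of all genes in wild type and 32.8% in BAP1 knockout). Esrrb left them with windows at the gene ends (2 in each, against 11.1% and 23.2%), so that the BAP1 knockout counts lie near the share of all genes. BAP1 peaks stayed at 0 of 10 under the windows, thresholds and overlaps tried, where all genes gave 4.52% in the main setting, 5.81% with a flank of 10 kb, and 1.33% and 0.101% at a −log10 q of 5 and 10. A count of 0 of 10 is near those shares, and stricter settings could not raise it. Ranking by −log10 q moved no percentile by more than the spread between libraries. No paired test was made, since the results come from no test; the values within each replicate number are in the report. The first libraries differ from the second in both depth and peak calling, and these cannot be told apart here. A gene with no peak in a first library was not called at its depth and settings, which does not show that RNF2 is absent.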
